A study of Mus with 8 samples.

Results

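A list of 28 genes that make, sense and move cholesterol, of the 24013 genes in a count table from RNA-seq, was followed in 3T3-L1 cells, a mouse preadipocyte line. The genes were listed by name from the known steps of cholesterol synthesis, its sensing by SREBP2 and its transport. They were chosen with earlier results of these data known, so their shares of calls are not independent of the data. Control cells (C cells) were infected with a lentivirus carrying a scrambled shRNA, and Prep1 down-regulated cells (P cells) with a lentivirus carrying a single shRNA against Prep1. Both lines were selected in puromycin. RNA was taken at day −2, which is before induction of adipogenic differentiation, when the cells grew in medium with BCS, and at day 1. By day 1 the cells had been in differentiation medium that held insulin (1 μg/ml), the phosphodiesterase inhibitor IBMX (0.5 mM), dexamethasone (1 μM) and FBS (10%). Each of the 4 conditions had 2 biological replicas, which makes 8 libraries. The labels do not say whether the replicas were separate infections, so p-values measure the spread between these libraries. Hormones, change of serum and days in culture cannot be told apart between day −2 and day 1, and an effect of the shRNA other than that on Prep1 cannot be told apart from the loss of Prep1.

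All 28 were matched by symbol, and the list does not hold every gene of the pathway. A filter on low counts left 13339 genes, among them 27 of the 28. The gene it removed was Hmgcs1, which makes HMG-CoA, the substrate from which mevalonate is formed. Hmgcs1 is listed at 0 counts in all 8 libraries, as are 2318 genes of the table, and nothing can be said of its level. The libraries held between 20428816 and 27614353 counts, so that 3 counts corresponded to between 0.107 and 0.16 CPM (the count scaled to library size with TMM factors), a floor for counting error only. Prep1, listed as Pknox1, had 28.1 and 26.5 CPM in the replicas of C cells before induction against 17.3 and 18.3 in P cells, and 38.1 and 36.5 against 23.6 and 23.8 at day 1. On both days all P libraries lay below all C libraries, by less than the ratio threshold used here (log2 ratios of −0.62 ± 0.14 (SE, adjusted p = 0.0558) and −0.65 ± 0.14 (SE, adjusted p = 0.0575) at day 1). Of 10 preadipocyte markers, all were detected, but their levels were not alike in C and P cells. Cd34 had only 2 and 3 counts in the replicas of P cells before induction, against 44 and 40 in C cells. In the other direction, Thy1 had 941 and 684 CPM in these P replicas against 140 and 134 in C cells. Pdgfrb had 542 and 362 against 164 and 150. By the calls defined below, 2 of the 10 were higher and 1 lower in P cells before induction. These are 20% and 10%, against 4.83% and 2.15% of all genes tested. Markers of other cell types were low but not absent. Summed over each list they reached 3.60 to 8.05 CPM in a library for 5 macrophage markers, 0.398 to 1.86 for 4 endothelial markers and 0.187 to 3.31 for 4 epithelial markers, and none of the 13 was at 0 in all libraries. The macrophage, endothelial and epithelial sums were all highest in C cells before induction. Csf1r had 5.74 and 4.96 CPM there, 2.13 and 1.53 in P cells before induction and at most 0.355 at day 1. Krt8 had 3.11 and 2.35 CPM there and at most 0.214 in the other libraries, while Cd68 reached 5.28 CPM at day 1. The other epithelial markers, at low counts, were highest in a P library. Cdh1 reached 0.678 CPM there before induction, and Krt18 0.513 and Epcam 0.171 at day 1. The part of the markers in the results was not tested. Replica 1 of P cells before induction stood apart from the other libraries. Its summed level of the 10 preadipocyte markers was 54642 CPM, mostly from Col1a1 and Col1a2, against 14285 in replica 2 and 9383 to 13102 in the other libraries. Levels of P cells before induction are therefore given by replica. Counts of calls among the 27 genes in comparisons with P cells are also given without this library. Counts of the other lists and of libraries that do not overlap include it.

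Cholesterol is built from acetyl-CoA by way of mevalonate and the isoprenoid farnesyl diphosphate, which is joined into squalene, closed to lanosterol and trimmed to cholesterol. The enzymes are under the common control of the transcription factor SREBP2, made from Srebf2. SREBP2 is held in the endoplasmic reticulum by Scap and the Insig proteins while sterols are plentiful, and is carried to the Golgi apparatus and cleaved when they are scarce. Cholesterol taken up in lipoproteins leaves the lysosome through Npc2 and Npc1, and surplus cholesterol leaves the cell through the transporter Abca1, a target of the oxysterol receptor LXR. In fat cells much of the free cholesterol lies at the surface of the lipid droplets.

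Induction lowered most enzymes of cholesterol synthesis in C cells and raised Abca1 and Npc2. A gene was called when its adjusted p-value (quasi-likelihood test of edgeR, adjusted by Benjamini-Hochberg over the 13339 genes, as for every adjusted p here) was under 0.1 and its ratio over 2 or under 0.5. In C cells, 12 of the 27 genes were called lower at day 1, against a background of 9.68% of all genes tested. A further 2 were called higher, with a background of 10.7%. In P cells, 15 were called lower, with a background of 10.4%, and 2 higher, with a background of 7.65%. Without the ratio threshold 15 were lower and 3 higher in C cells, with a background of 17.4% and 18.1%, and 18 and 3 in P cells, with a background of 17.4% and 14%. The libraries of the days did not overlap for 18 lower and 6 higher genes in C cells, with a background of 39.5% and 38.2%, and for 19 and 4 in P cells, with a background of 29% and 31.6%. The median log2 ratio of the 27 genes was −0.99 in C and −1.37 in P cells, where that of all genes was −0.01 and 0.02. Without replica 1 of P cells before induction, 16 genes were called lower and 2 higher in P cells, with a background of 7.79% and 7.3%, and without replica 2 12 and 4, with a background of 15.9% and 19.8%. These comparisons of C and of P cells share no library, but they come from 1 fit with a shared estimate of the spread. All 12 genes called lower in C cells were called lower in P cells, where they made up 80% of the lower calls, and the other 3 were Mvk, Mvd and Srebf2. The same overlap over all genes was not computed, so it is given here without a background. Less RNA per cell and fewer cells with the RNA cannot be told apart in these bulk samples. With library totals in place of TMM, the median of all genes moved to −0.11 in C and 0.19 in P cells, while that of the 27 genes was −1.10 and −1.19.

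**Figure D1:**
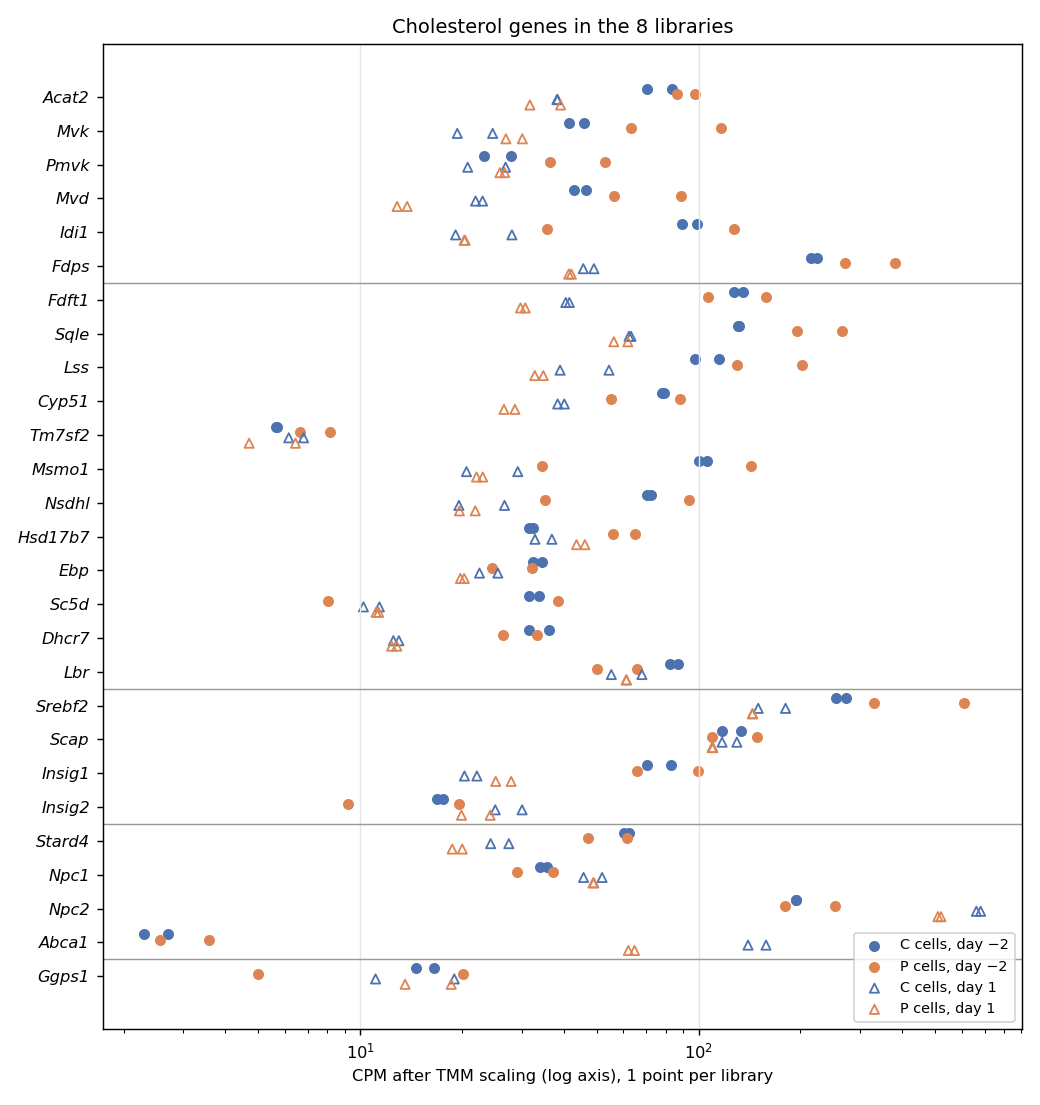
CPM after TMM scaling on a log axis for the 27 genes tested, in pathway order from top to bottom, with 1 point per library. Filled circles are day −2 and open triangles day 1, with C cells in blue and P cells in orange. For Fdps the day 1 points lie between 41.4 and 49.1 CPM, below all day −2 points. The lines part isoprenoid precursors, squalene to sterol, sensing, transport and the branch enzyme Ggps1.

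Among the enzymes that make isoprenoid precursors, the largest fall was that of Fdps, which makes farnesyl diphosphate. Fdps had 224 and 214 CPM in the replicas of C cells before induction and 45.7 and 49.1 at day 1. In P cells it had 380.0 and 270.3 CPM before induction and 42.1 and 41.4 at day 1. All day 1 libraries lay below all day −2 libraries, 4.62-fold in C cells and 7.79-fold in P cells on the fitted scale. The log2 ratio was −2.21 ± 0.19 (SE, adjusted p = 4.6e-04) in C cells and −2.96 ± 0.20 (SE, adjusted p = 2.8e-04) in P cells. Idi1, the isomerase that supplies the starter unit of the chain, went from 89.5 and 99.3 CPM to 28.1 and 19.2 in C cells, a log2 ratio of −2.00 ± 0.54 (SE, adjusted p = 0.0353). In P cells Idi1 had 35.7 and 127 CPM before induction, so that the replicas differed by more than C and P cells did, and 20.4 and 20.3 at day 1. Its log2 ratio in P cells was −2.00 ± 0.54 (SE, adjusted p = 0.0413), and it was −2.65 without replica 1 before induction and −0.80 without replica 2, where it was not called. In C cells the call of Idi1 was lost when any of the 4 C libraries was left out. Acat2, which joins acetyl-CoA units, went from 83.4 and 70.3 to 38.2 and 38.3 CPM in C cells, at the ratio threshold with a log2 ratio of −1.01 ± 0.17 (SE, adjusted p = 0.00662). In P cells Acat2 went from 97.5 and 86.6 to 31.8 and 39.1 CPM, a log2 ratio of −1.38 ± 0.17 (SE, adjusted p = 0.00259). Reads of Acat2 may be shared with its near copy Acat3, so its level is uncertain.

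The kinases and the decarboxylase that turn mevalonate into the isoprenoid unit had ratios nearer to 1 in C cells. Mvk, mevalonate kinase, had 46 and 41.5 CPM in C cells before induction and 19.4 and 24.6 at day 1, while P cells had 116 and 63 before and 27 and 30.2 after. Mvd, the decarboxylase, had 46.5 and 42.9 before and 21.9 and 23 after induction in C cells, while P cells had 88.6 and 56.1 before and 12.9 and 13.8 after. For both genes every day 1 library was below every day −2 library of the same cells. In C cells they passed the p threshold with ratios just short of the ratio threshold, with log2 ratios of −0.99 ± 0.29 (SE, adjusted p = 0.0487) and −0.99 ± 0.23 (SE, adjusted p = 0.0199). In P cells both were called, with log2 ratios of −1.65 ± 0.30 (SE, adjusted p = 0.0105) for Mvk and −2.44 ± 0.24 (SE, adjusted p = 0.00104) for Mvd. Pmvk, the next kinase, had 28 and 23.3 CPM in C cells before induction and 20.8 and 26.9 at day 1, which overlap. In P cells Pmvk had 53 and 36.5 CPM before and 25.9 and 26.7 after induction, a log2 ratio of −0.76 ± 0.23 (SE, adjusted p = 0.0593) that passed the p threshold alone.

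**Figure D2:**
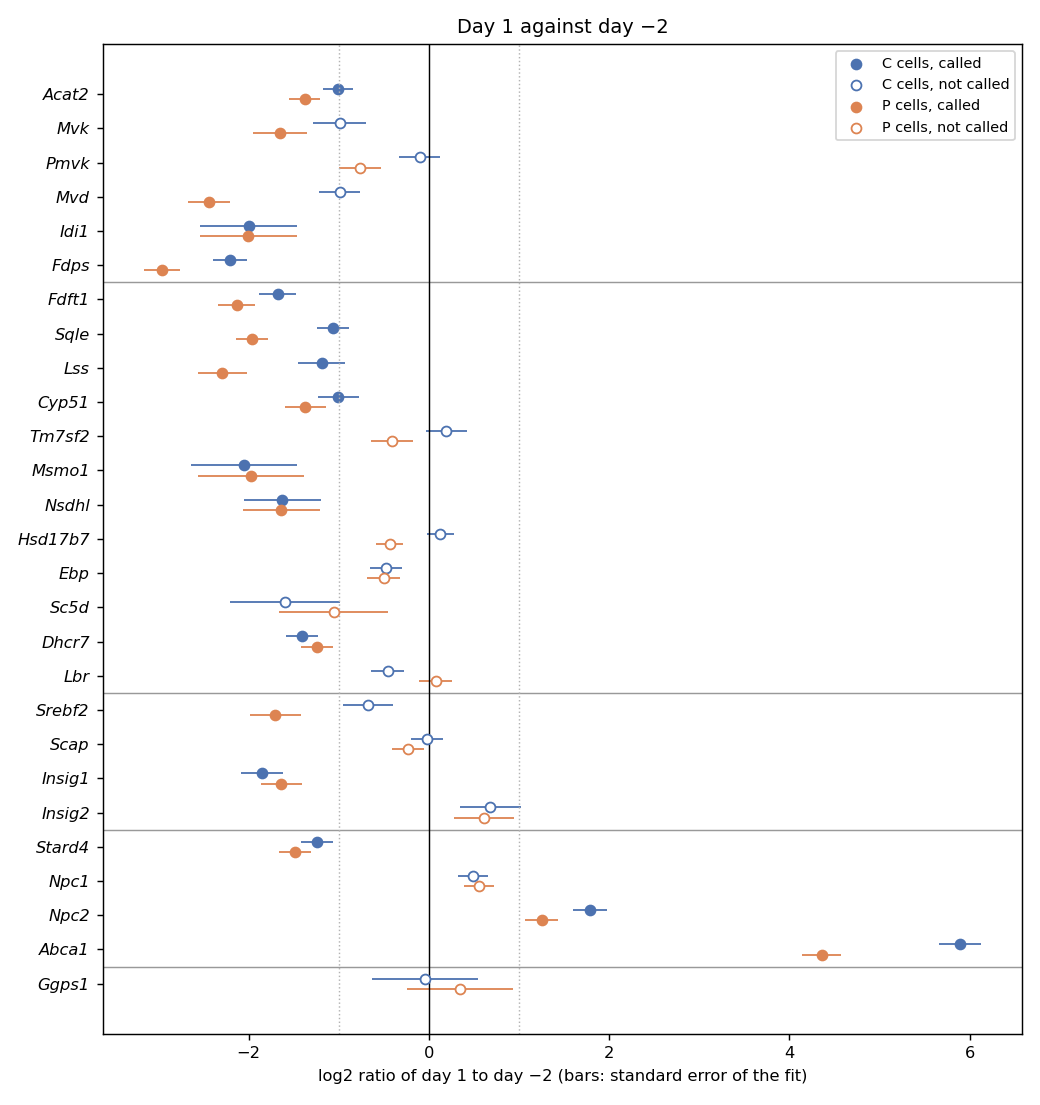
Fitted log2 ratio of day 1 to day −2 for each of the 27 genes, in C cells (blue) and P cells (orange), with bars for the standard error. Filled points are called and dotted lines mark ratios of 0.5 and 2. Most enzymes lie left of 0 in both lines, and Abca1 lies far right at 5.89 in C cells and 4.36 in P cells.

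Of the 12 enzymes from squalene to cholesterol, 7 were called lower in C cells and 7 in P cells, none was called higher, and the calls were on the same genes. The lower calls are 58.3% of these enzymes in each line, with a background of 9.68% in C and 10.4% in P cells. For higher genes the background was 10.7% and 7.65%. Fdft1, squalene synthase, went from 135 and 128 to 40.5 and 41.5 CPM in C cells and from 107 and 159 to 29.8 and 30.8 in P cells, with log2 ratios of −1.68 ± 0.20 (SE, adjusted p = 0.0018) and −2.13 ± 0.21 (SE, adjusted p = 0.00104). Sqle, squalene epoxidase, went from 132 and 131 to 62.3 and 63.2 CPM in C cells and from 265 and 195 to 56.2 and 61.8 in P cells. Its log2 ratio was −1.07 ± 0.18 (SE, adjusted p = 0.00595) in C cells and −1.96 ± 0.18 (SE, adjusted p = 8.6e-04) in P cells. Lss, which closes the ring of lanosterol, fell from 115 and 97.7 to 39 and 54.4 CPM in C cells and from 202 and 129.6 to 34.8 and 32.8 in P cells, log2 ratios of −1.19 ± 0.26 (SE, adjusted p = 0.0169) and −2.29 ± 0.27 (SE, adjusted p = 0.00203). Cyp51, the lanosterol demethylase, stood at the ratio threshold in C cells with a log2 ratio of −1.004 ± 0.22 (SE, adjusted p = 0.0186), from 79.3 and 78.1 to 38.4 and 40.1 CPM. In P cells Cyp51 went from 55.1 and 88 to 28.7 and 26.6 CPM, a log2 ratio of −1.37 ± 0.23 (SE, adjusted p = 0.00766). Dhcr7, the reductase of the last step, had 31.5 and 36.2 CPM in C cells before induction and 13 and 12.5 at day 1, while P cells had 26.5 and 33.2 before and 12.4 and 12.8 after. The log2 ratio of Dhcr7 was −1.40 ± 0.18 (SE, adjusted p = 0.00215) for C and −1.24 ± 0.18 (SE, adjusted p = 0.00441) for P cells. In all these genes the day 1 libraries lay below the day −2 libraries without overlap.

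Msmo1 and Nsdhl, which remove methyl groups from the sterol ring, were called lower in both lines with replicas of P cells that lay far apart before induction. Msmo1 had 100.3 and 106 CPM in C cells before induction and 29.2 and 20.6 at day 1, a log2 ratio of −2.05 ± 0.59 (SE, adjusted p = 0.0429). In P cells it had 34.4 and 143 CPM before and 23 and 22.1 after induction. Nsdhl had 72.5 and 70.6 CPM before and 26.7 and 19.6 after induction in C cells, while P cells had 35.2 and 93.8 before and 19.7 and 21.9 after. The log2 ratios in P cells were −1.98 ± 0.59 (SE, adjusted p = 0.0552) for Msmo1 and −1.64 ± 0.43 (SE, adjusted p = 0.0374) for Nsdhl, and that of Nsdhl in C cells was −1.63 ± 0.43 (SE, adjusted p = 0.0321). Without replica 1 of P cells before induction the ratios of Msmo1 and Nsdhl were −2.67 and −2.18 in P cells, and without replica 2 they were −0.60 and −0.75, short of the ratio threshold. The call of both genes in P cells was lost without replica 2 of P cells before induction or without a day 1 replica of P cells, and that of Msmo1 also without a C replica taken before induction. In C cells it was lost when any of the 4 C libraries was left out, with an adjusted p over all alternatives of 6.2e-06 to 0.227 for Msmo1 and 2.0e-05 to 0.198 for Nsdhl. Sc5d, the sterol desaturase, had 31.5 and 33.8 CPM in C cells before induction and 11.4 and 10.2 at day 1 without overlap, with a log2 ratio of −1.59 ± 0.61 (SE, adjusted p = 0.1) that just missed the threshold, and in P cells its log2 ratio was −1.06 ± 0.61 (SE, adjusted p = 0.25). Sc5d was called lower in C cells under 7 alternatives, among them DESeq2, a fit of the C libraries alone and each fit without a P replica taken before induction, with an adjusted p of 5.4e-06 without replica 1 and 7.0e-06 without replica 2. These P replicas held 8.04 and 38.5 CPM, and all 4 conditions share 1 estimate of the spread. In P cells, which had 11.2 and 11.3 CPM at day 1, Sc5d was called lower without replica 1, at −1.79 with an adjusted p of 1.4e-05.

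Some enzymes of the same stretch did not pass. Hsd17b7, a reductase of the demethylation steps, had 31.6 and 32.3 CPM in C cells before induction and 32.9 and 36.9 at day 1, a log2 ratio of 0.12 ± 0.15 (SE, adjusted p = 0.581). In P cells, where Hsd17b7 started higher, it went from 56.1 and 65.1 to 46.2 and 43.6 CPM, a log2 ratio of −0.43 ± 0.15 (SE, adjusted p = 0.0811). Ebp, the sterol isomerase, had a log2 ratio of −0.48 ± 0.18 (SE, adjusted p = 0.0967) in C cells, from 34.5 and 32.4 to 25.5 and 22.5 CPM, and −0.50 ± 0.18 (SE, adjusted p = 0.0925) in P cells, from 24.6 and 32.2 to 19.8 and 20.3 CPM, and passed the p threshold in both lines without the ratio threshold. Of the paired sterol reductases, Tm7sf2 was at 5.70 and 5.63 CPM in C cells before induction and 6.16 and 6.81 at day 1. Lbr, which also binds the nuclear lamina, was at 82.2 and 87.2 CPM before and 68 and 55.3 after induction. Their log2 ratios were 0.19 ± 0.23 (SE, adjusted p = 0.58) and −0.46 ± 0.18 (SE, adjusted p = 0.111). In P cells Tm7sf2 was at 6.66 and 8.13 CPM before and 4.70 and 6.44 after induction, a log2 ratio of −0.41 ± 0.23 (SE, adjusted p = 0.244), and Lbr at 50.2 and 65.9 before and 61.3 and 61.1 after, a log2 ratio of 0.08 ± 0.18 (SE, adjusted p = 0.789). Ggps1, which extends farnesyl diphosphate to the geranylgeranyl group of proteins and leaves the sterol branch, had 14.6 and 16.5 CPM in C cells before induction and 19 and 11.1 at day 1. Its libraries overlapped, with a log2 ratio of −0.05 ± 0.59 (SE, adjusted p = 0.964) in C cells and 0.34 ± 0.59 (SE, adjusted p = 0.7) in P cells. Genomic overlaps in a later RefSeq annotation touch Fdft1 (with Ctsb), Lss (with 4930483K19Rik), Tm7sf2 (with Vps51), Srebf2 (with Mir33) and Npc1 (with Rmc1), and without a stated strand setting reads of the partners cannot be told apart.

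The 4 sensing genes did not move together. Insig1, an Insig protein that is itself a target of SREBP2, fell from 70.7 and 82.7 to 22.1 and 20.3 CPM in C cells, a log2 ratio of −1.85 ± 0.23 (SE, adjusted p = 0.00193). In P cells it fell from 65.6 and 99.8 to 27.9 and 25.2 CPM, a log2 ratio of −1.64 ± 0.23 (SE, adjusted p = 0.00386). Insig2, its relative, was higher in each day 1 library than in each day −2 library of the same cells, with 17.5 and 16.9 CPM before and 30.1 and 25.1 after induction in C cells, while P cells had 9.21 and 19.6 before and 24.2 and 19.9 after. The log2 ratios of Insig2, 0.68 ± 0.34 (SE, adjusted p = 0.182) and 0.61 ± 0.34 (SE, adjusted p = 0.234), did not pass the test. Srebf2 had 273 and 255 CPM in C cells before induction and 150.1 and 181 at day 1, with no overlap and a log2 ratio of −0.67 ± 0.28 (SE, adjusted p = 0.122). In P cells Srebf2 had 610.5 and 330.2 CPM before and 144 and 145 after induction, and was called with a log2 ratio of −1.70 ± 0.29 (SE, adjusted p = 0.00808). Scap, the escort of SREBP2, lay between 109.6 and 149 CPM in all libraries and had log2 ratios of −0.02 ± 0.18 (SE, adjusted p = 0.944) and −0.23 ± 0.18 (SE, adjusted p = 0.381).

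**Figure D3:**
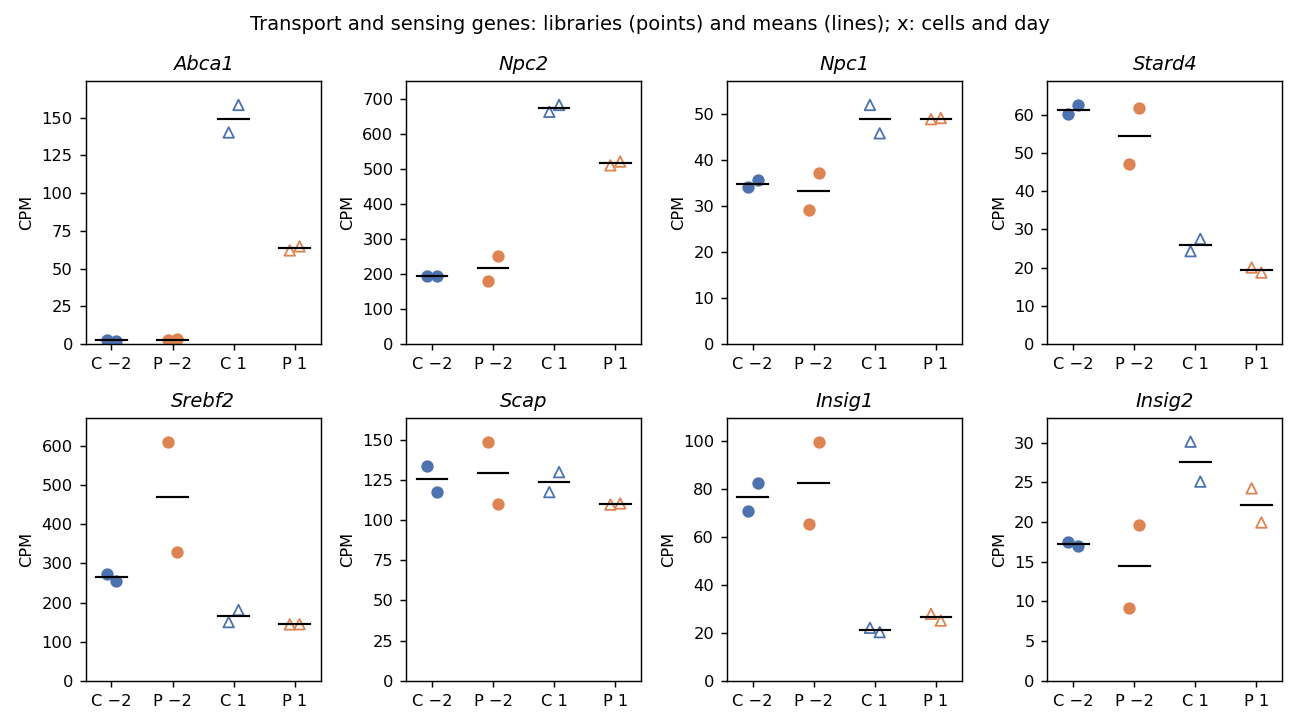
CPM of the transport genes (top) and sensing genes (bottom) in each library, with points for libraries and lines for the mean of 2 replicas. On the horizontal axis C and P are the cells and −2 and 1 the day. Abca1 is near 0 before induction and higher in C than in P cells at day 1, and Srebf2 before induction has a P library at 610.5 CPM.

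Of the transport genes, Abca1 changed most of all 27 genes. It had 2.71 and 2.30 CPM in C cells before induction and 140.1 and 158 at day 1, a rise of 59.3-fold with a log2 ratio of 5.89 ± 0.23 (SE, adjusted p = 6.2e-05). In P cells it went from 2.56 and 3.57 to 62.1 and 64.7 CPM, a rise of 20.5-fold with a log2 ratio of 4.36 ± 0.22 (SE, adjusted p = 1.3e-04). Npc2, the soluble carrier of the lysosome, rose from 194 and 195 to 662 and 682 CPM in C cells and from 179.9 and 253 to 509.7 and 520.5 in P cells, log2 ratios of 1.79 ± 0.19 (SE, adjusted p = 9.8e-04) and 1.25 ± 0.18 (SE, adjusted p = 0.00494). Npc1, its membrane partner, went from 34 and 35.6 to 51.9 and 45.7 CPM in C cells and from 29.1 and 37.2 to 48.8 and 49.1 in P cells. It passed the p threshold alone, with log2 ratios of 0.49 ± 0.17 (SE, adjusted p = 0.0738) and 0.56 ± 0.17 (SE, adjusted p = 0.0567). Stard4, a sterol carrier of the cytosol and a target of SREBP2, fell with the enzymes. It went from 60.1 and 62.5 to 24.3 and 27.5 CPM in C cells and from 47.1 and 61.6 to 20.04 and 18.7 in P cells, log2 ratios of −1.24 ± 0.18 (SE, adjusted p = 0.00345) and −1.49 ± 0.18 (SE, adjusted p = 0.00222).

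Of the 14 calls in C cells, 8 were made under all 18 alternatives that keep the ratio threshold: Fdps, Fdft1, Sqle, Dhcr7, Insig1, Stard4, Npc2 and Abca1. In P cells this held for 13 of 17, and the other 4 were Idi1, Cyp51, Msmo1 and Nsdhl. The count in C cells fell to 8 without replica 1 of C cells before induction, to 8 without replica 1 of C cells at day 1 and to 9 without replica 2 of C cells at day 1.

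Before induction, few of these genes passed the test between P and C cells, and the replicas of P cells lay far apart in several of them. The lack of calls therefore does not show that levels were alike. At day −2 a single gene, Mvk, was called higher in P cells, which is 3.70% of the 27 against a background of 4.83%, and none was called lower, with a background of 2.15%. The number is near the background. Mvk had a log2 ratio of 1.04 ± 0.29 (SE, adjusted p = 0.0941), from the values above, and the call was lost in 14 of 18 alternatives, among them library totals in place of TMM and each fit without 1 library other than replica 2 of P cells before induction. Without the ratio threshold, 4 genes passed, all higher in P cells, with a background of 7.62% for higher and 3.72% for lower genes. Beside Mvk these were Hsd17b7, Sqle and Pmvk. Hsd17b7 had 31.6 and 32.3 CPM in C cells against 56.1 and 65.1 in P cells, a log2 ratio of 0.92 ± 0.15 (SE, adjusted p = 0.018). Sqle stood at 132 and 131 CPM in C cells against 265 and 195 in P cells, a log2 ratio of 0.81 ± 0.17 (SE, adjusted p = 0.0459). Pmvk stood at 28 and 23.3 CPM in C cells against 53 and 36.5 in P cells, a log2 ratio of 0.80 ± 0.23 (SE, adjusted p = 0.0988). In these genes both P libraries were above both C libraries.

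Without replica 1 of P cells before induction, the remaining P library being assumed to vary like the others, 9 genes passed the p threshold, all higher in P cells, with a background of 11.6% for higher and 8.04% for lower genes. They were Mvk, Pmvk, Mvd, Fdps, Sqle, Msmo1, Hsd17b7, Insig1 and Npc2. Their log2 ratios were between 0.31 for Fdps and 1.03 for Hsd17b7, which alone was past the ratio threshold, and the adjusted p of Hsd17b7 was 5.1e-04. Mvk was at 0.54 in this fit, under the ratio threshold. Without replica 2 in its place, 9 genes passed the p threshold as higher and 12 as lower, with a background of 32.6% and 32.4%. With the ratio threshold, 4 were called higher and 5 lower without replica 2, with a background of 14% and 17.3%, which is near the share of the 27 genes, against 1 and 0 without replica 1, with a background of 3.94% and 2.55%. The libraries of P and C cells did not overlap for 10 genes higher in P cells (37%, with a background of 26.5%) and 2 lower (7.41%, with a background of 27.3%). The higher genes were Acat2, Mvk, Pmvk, Mvd, Fdps, Sqle, Lss, Tm7sf2, Hsd17b7 and Srebf2, and the lower genes were Ebp and Lbr. The median log2 ratio of the 27 genes was 0.04 against 0.01 over all genes, and with library totals these were −0.15 and −0.18.

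The replicas of P cells before induction differed in both directions over the genes. In 6 genes they differed by more than 1 on the log2 CPM scale, and all were lower in replica 1: Idi1, Msmo1, Nsdhl, Sc5d, Insig2 and Ggps1. The largest gap was that of Sc5d, with 8.04 and 38.5 CPM, and Ggps1 had 5.01 and 20.2. In the other direction, 9 genes were higher in replica 1, led by Srebf2, with 610.5 and 330.2 CPM, and Mvk, with 116 and 63. The SD of the difference between replicas over the 27 genes was 0.906 in P cells before induction, 0.139 in C cells before induction, and, at day 1, 0.297 in C and 0.167 in P cells. Over all genes tested these values were, in the same order, 1.0, 0.340, 0.480 and 0.524. The replicas of C cells at day 1 differed in the opposite direction in most of the genes, as they did over all genes tested. The Pearson correlation of the differences was −0.82 over 27 genes that share the 4 libraries, the Spearman correlation −0.75, and 20 of 27 had opposite signs, as had 9536 of all 13339. Over all 13339 genes the correlations were −0.35 and −0.52, also negative. For Idi1, Msmo1, Nsdhl, Sc5d, Insig2 and Ggps1 a difference between P and C cells before induction could not be read in either direction, since the P replicas lay on both sides of the C replicas. The same held, with smaller gaps, for Fdft1, Cyp51, Scap, Insig1, Npc1 and Npc2.

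**Figure D4:**
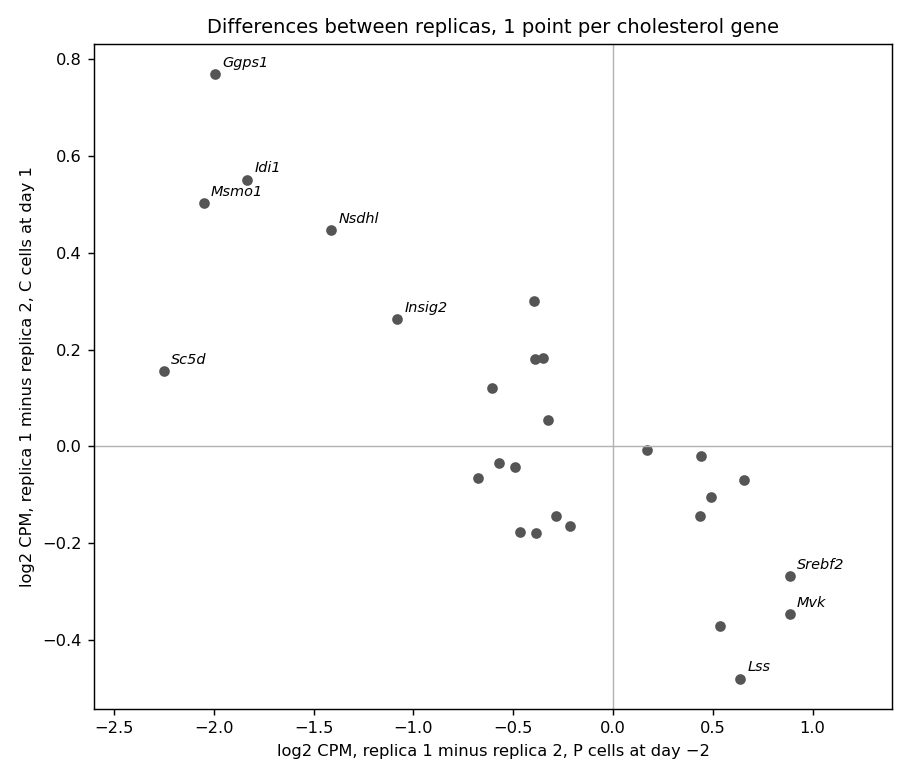
Difference of log2 CPM between replica 1 and replica 2 in P cells before induction (horizontal) and in C cells at day 1 (vertical), 1 point per gene. Genes with a difference over 1 in P cells, and Srebf2, Mvk and Lss, are named. The 6 genes with a difference over 1 in P cells lie left of 0 and above 0, and Srebf2, Mvk and Lss lie right of 0 and below it.

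After induction, Abca1 was lower in P than in C cells. At day 1 it had 140.1 and 158 CPM in C cells against 62.1 and 64.7 in P cells, 2.35-fold lower, a log2 ratio of −1.24 ± 0.19 (SE, adjusted p = 0.0188). It was the 1 gene called among the 27, with a background of 2.23% for lower genes, and none was called higher, with a background of 1.83%. The same gene alone passed without the ratio threshold, with a background of 3.42% for lower and 2.73% for higher genes. Without replica 1 of P cells before induction, 9 genes passed the p threshold as lower and 2 as higher at day 1, with a background of 16.2% and 12.7%, and without replica 2 7 and 3, with a background of 15.5% and 13.9%. Abca1 alone was past the ratio threshold in both fits. The call of Abca1 was lost when any of the 4 day 1 libraries was left out, where the adjusted p reached 0.236, and was kept in the other 14 alternatives. Over all of them its log2 ratio ran from −1.35 to −1.13. At day −2 Abca1 had 2.71 and 2.30 CPM in C cells against 2.56 and 3.57 in P cells, which overlap. The rise by induction was smaller in P than in C cells. The response of P cells less that of C cells was −1.53 ± 0.28 (SE, adjusted p = 0.0651) on the log2 scale, the 1 gene of the 27 under an adjusted p of 0.1, with a background of 1.93% for lower responses and 0.435% for higher. This was lost in 10 of 17 alternatives, among them the replica block, library totals and each fit without a C library or a day 1 P library, with adjusted p from 3.8e-04 to 0.412.

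The other genes of the pathway had small ratios at day 1. The P libraries lay below the C libraries without overlap for 13 genes (48.1%, with a background of 29.9%), which were Mvd, Fdps, Fdft1, Sqle, Lss, Cyp51, Ebp, Srebf2, Scap, Insig2, Stard4, Npc2 and Abca1. They lay above them for 3 (11.1%, with a background of 30.6%), which were Mvk, Hsd17b7 and Insig1. The lowest ratio after Abca1 was that of Mvd, with 21.9 and 23 CPM in C cells against 12.9 and 13.8 in P cells and a log2 ratio of −0.76 ± 0.23 (SE, adjusted p = 0.15). Lss had 39 and 54.4 CPM in C cells against 34.8 and 32.8 in P cells, with a log2 ratio of −0.47 ± 0.26 (SE, adjusted p = 0.461). Npc2 had 662 and 682 CPM in C cells against 509.7 and 520.5 in P cells, with a log2 ratio of −0.38 ± 0.18 (SE, adjusted p = 0.373). Mvk had 19.4 and 24.6 CPM in C cells against 27 and 30.2 in P cells, a log2 ratio of 0.38 ± 0.29 (SE, adjusted p = 0.653). None of these passed the test with all libraries. The median log2 ratio of P to C cells was −0.17 over the 27 genes and 0.01 over all genes. With library totals these medians were −0.07 and 0.11.

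**Figure D5:**
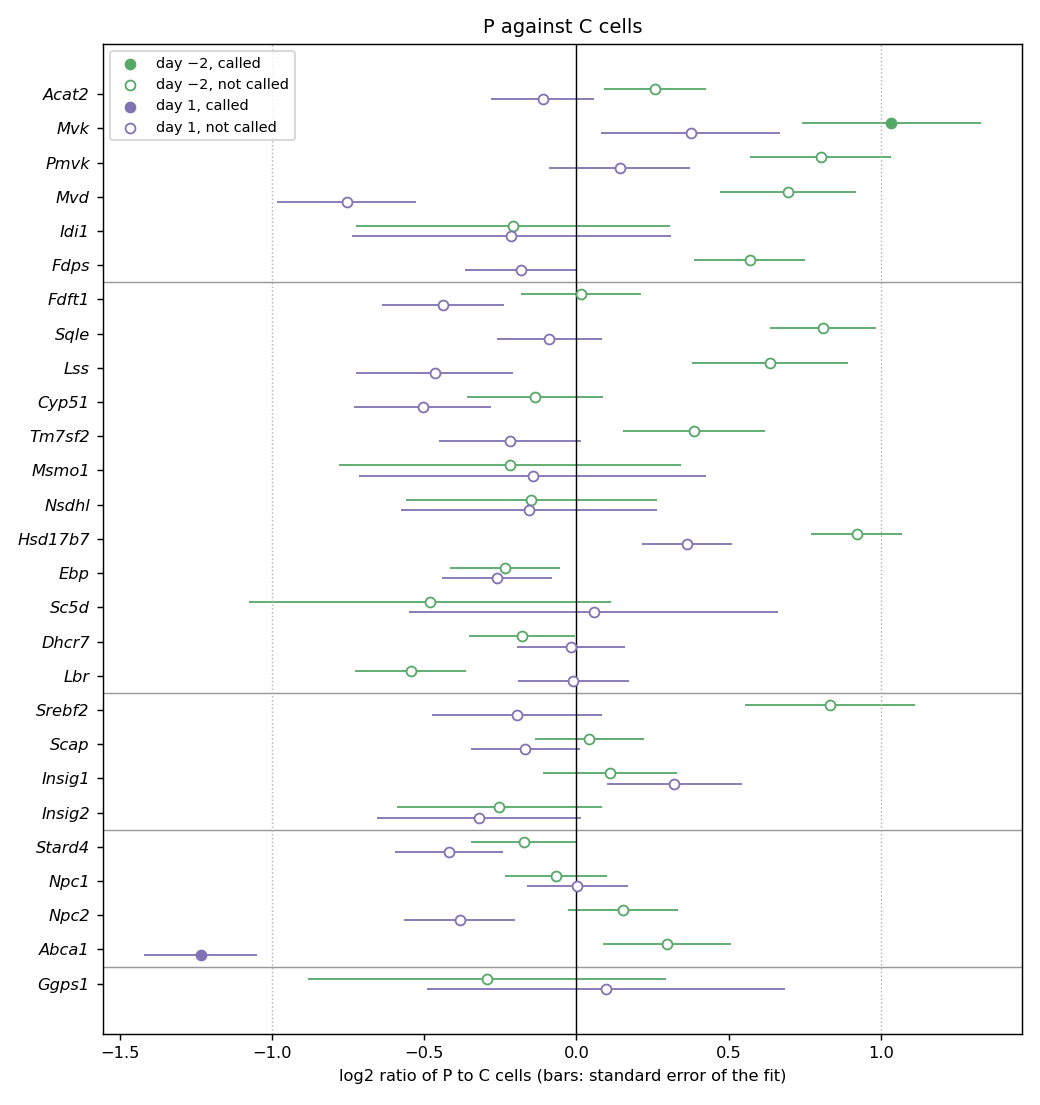
Fitted log2 ratio of P to C cells before induction (green) and at day 1 (purple) for each of the 27 genes, with bars for the standard error. Filled points are called and dotted lines mark ratios of 0.5 and 2. Mvk before induction and Abca1 at day 1 are the called genes, and Mvd, Fdps, Sqle, Lss and Srebf2 lie right of 0 before induction and left of 0 at day 1.

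In 5 genes, Mvd, Fdps, Sqle, Lss and Srebf2, both P libraries were above both C libraries before induction and below both at day 1. Of all genes tested, 6.25% had this pattern. For Mvd the response of P cells less that of C cells was −1.45 ± 0.32 (SE, adjusted p = 0.109), for Lss −1.10 ± 0.36 (SE, adjusted p = 0.255), for Srebf2 −1.03 ± 0.39 (SE, adjusted p = 0.317), for Sqle −0.90 ± 0.25 (SE, adjusted p = 0.177) and for Fdps −0.75 ± 0.26 (SE, adjusted p = 0.27), none under 0.1. The sign was negative for 20 of the 27 genes, with a median of −0.37 against −0.01 over all genes. With library totals the median of the 27 was −0.07 and that of all genes 0.29. Without replica 1 of P cells before induction, 8 genes had a lower response in P cells and none a higher, with a background of 7.52% and 3.03%. They were Mvd, Fdps, Fdft1, Sqle, Cyp51, Hsd17b7, Npc2 and Abca1. Without replica 2, 11 had a lower and 8 a higher response, with a background of 30.2% and 29.8%. As a median over the 18 enzymes tested, from Acat2 to Dhcr7 and Lbr, log2 CPM stood at −0.03 and 0.32 in the replicas of P cells before induction, at −1.12 and −0.98 in C cells at day 1 and at −1.45 and −1.45 in P cells at day 1, relative to the mean of C cells before induction.

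Other genes that handle cholesterol, outside synthesis and the SREBP2 list, moved in both directions. Of 18 listed, 16 were tested, and Ch25h and Cyp27a1 had at most 3 counts in a library. By induction 5 were called higher and 2 lower in C cells, and 2 higher and 2 lower in P cells. As shares of the 16 these were 31.2% and 12.5% in C cells, with a background of 10.7% and 9.68%, and 12.5% and 12.5% in P cells, with a background of 7.65% and 10.4%. Vldlr, a lipoprotein receptor, rose from 4.82 and 6.07 to 74.8 and 83.9 CPM in C cells, a log2 ratio of 3.86 ± 0.20 (SE, adjusted p = 8.0e-05). In P cells Vldlr was already at 16.5 and 19.98 CPM before induction, a log2 ratio of 1.74 ± 0.19 (SE, adjusted p = 0.00435) against C cells, and reached 89.2 and 84.3 at day 1. Scarb1, the receptor of high-density lipoprotein, fell from 53.4 and 51.2 to 6.75 and 6.73 CPM in C cells and from 32.3 and 33.2 to 7.78 and 7.0 in P cells, log2 ratios of −2.95 ± 0.16 (SE, adjusted p = 8.0e-05) and −2.15 ± 0.15 (SE, adjusted p = 3.4e-04). Nceh1, a cholesterol ester hydrolase, fell in C cells from 12.9 and 12.8 to 3.55 and 2.07 CPM, a log2 ratio of −2.19 ± 0.43 (SE, adjusted p = 0.0114). Abcg1, like Abca1 a sterol exporter and LXR target, was higher in P cells on both days and was not called by induction in either line. It had 0.359 and 1.06 CPM in C cells before induction and 0.474 and 0.756 at day 1, while P cells had 5.54 and 4.46 before and 5.38 and 6.63 after. Its log2 ratio of P to C cells was 2.82 ± 0.50 (SE, adjusted p = 0.025) before induction and 3.28 ± 0.51 (SE, adjusted p = 0.0211) at day 1, where that of Abca1 was −1.24. The C libraries held only 9 and 24 counts of Abcg1 before induction and 12 and 19 at day 1. Its day 1 call was lost when any day 1 library was left out. Its call before induction was lost without replica 1 of C cells before induction and in a fit of its own conditions. Of the 16 genes, 12.5% were called higher in P cells before induction and 6.25% at day 1, with a background of 4.83% and 1.83%.

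Most calls among genes of the fatty acid arm of the SREBP response were lower at day 1. Of 13, 4 were called lower and 1 higher by induction in C cells, and 7 lower and 0 higher in P cells, where the lower calls are 30.8% and 53.8% of the list, with a background of 9.68% and 10.4%. The higher calls are 7.69% and 0%, with a background of 10.7% and 7.65%. The calls of Fasn, Aacs and Mid1ip1 in P cells were lost, among other alternatives, without replica 1 of P cells before induction. That of Me1 was lost without replica 2. In these replicas Fasn had 1605 and 849 CPM and Mid1ip1 106 and 42.4. The largest changes in C cells were those of Elovl6, a fatty acid elongase, with a log2 ratio of −2.28 ± 0.26 (SE, adjusted p = 0.00137), of Me1, malic enzyme, with −1.73 ± 0.16 (SE, adjusted p = 6.3e-04), and of the desaturase Fads2 with −1.49 ± 0.20 (SE, adjusted p = 0.00251). In P cells they were those of Fads2 (−2.04), from 172 and 126 to 35.3 and 37.5 CPM, of Elovl6 (−1.91), from 48 and 82.5 to 17.3 and 17.6, and of Aacs (−1.52), which uses ketone bodies for lipid synthesis, from 270.2 and 138 to 69.4 and 73.2. The gene called higher in C cells was Scd1, a desaturase, which went from 72 and 74.4 to 208 and 187 CPM. At day 1 Scd1 was also the gene of this list called between P and C cells, with 98.8 and 93.6 CPM in P cells and a log2 ratio of −1.04 ± 0.16 (SE, adjusted p = 0.0194). It is 7.69% of the list, with a background of 2.23% for lower genes, and its call was lost in 5 of 18 alternatives. At day −2 the gene called was Acss2, acetyl-CoA synthetase, with 7.73 and 6.87 CPM in C cells against 24.5 and 20.5 in P cells, a log2 ratio of 1.62 ± 0.18 (SE, adjusted p = 0.00523). This is 7.69% of the list, with a background of 4.83% for higher genes.

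Of 18 enzymes that use isoprenoids for other ends, 3 were called lower and 0 higher in C cells, and 2 lower and 1 higher in P cells, with medians of 0.01 and −0.12. The lower calls were 16.7% and 11.1% of the list, with a background of 9.68% and 10.4%. The higher calls were 0% and 5.56%, with a background of 10.7% and 7.65%. The genes called were Chml, a Rab escort protein (−1.92), Pdss1, which makes the tail of ubiquinone (−1.45), and Fntb, a farnesyltransferase subunit (−1.01), in C cells. In P cells they were Rabggta (−1.14), Fntb (−1.11) and Trit1 (1.01). In C cells the call of Pdss1 was lost in 2 of 18 alternatives and that of Fntb in 7. In P cells the call was lost in 5 for Rabggta, 4 for Fntb and 6 for Trit1. Each of these calls in P cells was lost, among others, without replica 1 of P cells before induction. Chml was the gene called between P and C cells before induction, with 15.7 and 16.5 CPM in C cells against 3.20 and 7.31 in P cells. Its log2 ratio was −1.60 ± 0.37 (SE, adjusted p = 0.0598). This is 5.56% of the list, with a background of 2.15% for lower genes. None was called at day 1, with a background of 2.23% for lower and 1.83% for higher genes. A list of 11 genes was set around the processing of SREBP2 and the breakdown of its partners, though not all of them act in these steps. Of the 11, 1 was called lower in C cells (9.09%, with a background of 9.68%), Tmem97, with a log2 ratio of −1.10 ± 0.32 (SE, adjusted p = 0.0455). This call was lost when any of the 4 C libraries was left out. None was called in P cells or between P and C cells on either day. For lower and higher genes the background was 10.4% and 7.65% for induction in P cells. Between P and C cells it was 2.15% and 4.83% before induction and 2.23% and 1.83% at day 1. Mbtps1, a protease that cleaves SREBP2, had 144 and 135 CPM in C cells before induction and 189 and 224 at day 1.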

How the data were processed

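The authors sequenced the libraries on the Ion Torrent system, removed artifacts with the FASTX-Toolkit, aligned the reads to the mm9 genome with TopHat2 2.0.9 and counted them per NCBI gene on the UCSC refGene annotation with R packages. The deposited values are these raw counts. Treatment of strand and of reads with more than 1 place is not given in the sources used here. Symbols came from a RefSeq list of build GRCm38.p6 (23929 of 24013 genes), used for names and neighbours only.

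The tests were run with edgeR 4.0.16 and limma 3.58.1 under R 4.3.3: filterByExpr, TMM, a quasi-likelihood fit of 4 condition means to all 8 libraries, and contrasts for 4 comparisons and their interaction, the last called at an adjusted p under 0.1 with no ratio threshold. Log2 CPM used a prior count of 2. Standard errors are the log2 ratio divided by the root of F. Standard errors and p-values rest on 2 replicas per condition, and an exact permutation test of 2 against 2 could not go below 0.333. Depth was 20428816 to 27614353 counts. The script was tested on simulated data.

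The genes and lists were chosen with earlier results of these data known. All 28 genes are named, with Prep1, and from each other list at most the 3 called genes with the largest ratio in a comparison. Mbtps1, Ch25h, Cyp27a1, Fasn, Mid1ip1 and marker genes outside that rule were named after their values were seen. Alternatives were DESeq2 1.42.0, other scalings and filters, each comparison fitted alone, the replica number as a block, other thresholds, and each library left out. Sequences of promoters and proteins were not used here.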

Additional observations from a re-analysis of the deposited data

Results flagged for a closer look

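The response to induction of Abca1 was not the same in P as in C cells by the test of the difference, which gave −1.53 on the log2 scale (SE 0.28, adjusted p = 0.0651 in edgeR), with a rise in both lines. Over 17 alternatives it ran from −1.77 to −1.26 and was past the threshold in 7.

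The response of Vldlr also differed, by −1.62 (SE 0.25, adjusted p = 0.0414 in edgeR), with the higher level of P cells before induction given above. It ran from −1.79 to −1.33 and was past the threshold in 10 of 17 alternatives. It was not past it with library totals in place of TMM or when any library other than those of P cells before induction was left out. Conditions of 2 replicas are too small to test for a library far from the others.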

How the results depend on the processing

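No called log2 ratio of a named gene changed sign under an alternative. The counts for induction in C and in P cells stayed within 1.5 times under every alternative that kept all libraries, and over the libraries left out they ran from 8 to 14 and from 14 to 18. For P against C cells before induction, the count of 1 became 0 with library totals, with at least 10 counts in every library, in a fit of its own conditions, with the replica block, with either crossing of its numbers and at an adjusted p under 0.05, and 4 without the ratio threshold. Leaving out a library gave 0 to 9 there, 0 to 1 at day 1 and 0 to 19 for the interaction. The interaction count of 1 was 3 with DESeq2, 2 without the filter, 2 with at least 10 counts, 2 with all day 1 numbers crossed in the block, and 0 with library totals, the replica block, the P numbers at day 1 crossed and an adjusted p under 0.05. The causes were not tested. A fit without a library assumes that its lone partner varies like the other groups. Over all genes, calls ran from 81 to 4380 and 63 to 994 for P against C cells before induction and day 1, 1664 to 4743 and 1213 to 5000 for induction in C and P cells, and 32 to 8395 for the interaction. Replica numbers did not pair the libraries, with correlations of deviations from −0.35 to 0.21 over 6 pairs of conditions, and the crossings were chosen after seeing the data. With the replica block, 14 and 16 genes were called for induction in C and P cells and 1 between P and C cells at day 1.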
